A study of Mus musculus with 4 samples.

Results

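Replication-dependent histone genes are the clustered genes that supply the core histones H2A, H2B, H3 and H4 and the linker histone H1 when DNA is copied. They were taken here as every entry of the 2 deposited expression tables whose gene symbol begins with Hist1h, Hist2h, Hist3h or Hist4h, which gave 65 distinct symbols. Of the 22440 entries of the mammosphere table, 67 were histone entries, and 52 of these reached 1 FPKM (fragments scaled to transcript length and to library size) in the mammosphere or the bulk library. Of the 11708 entries of the knockdown table, 31 were histone entries covering 32 symbols, and 17 of these reached 1 FPKM in either library. The other 33 symbols were listed only in the mammosphere table.

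The libraries came from MMTV-Myc cells, a mouse mammary tumour cell line in which the mouse mammary tumour virus promoter drives a Myc transgene, so cells labelled wild type carry that transgene too. Mammosphere cells (day 20) were grown on ultra-low attachment plates with 20 ng/ml EGF, 20 ng/ml bFGF and Gem21 supplement, and were split with trypsin every 4 days. They were set against bulk cells (day 0), grown in medium with 2% serum and insulin. Cells with a lentiviral pLKO.1 hairpin against Cbx8 (sh68) were set against cells with a control hairpin, named shLuc in one label and shScr in another, both under 2 µg/ml puromycin. The labels do not say in which of these forms the hairpin cultures were kept. Cbx8 is a chromodomain subunit of Polycomb repressive complex 1. Each group was 1 library and a single hairpin was used, so no difference below has a replicate check and no p-value was computed. The numbers of fragments behind the values are unknown, since the tables hold no counts.

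Most mRNAs of these genes are not polyadenylated. They end in a conserved stem-loop that is bound by the stem-loop binding protein and cleaved with the help of the U7 small nuclear ribonucleoprotein, and they are made mainly in S phase and degraded when replication stops. Some copies also give polyadenylated transcripts through a downstream signal, a form known from differentiated cells. The RNA here was selected with oligo-dT beads, so the values count polyadenylated copies and whatever else the selection let through, and are not the total level of histone mRNA.

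The stem-loop is the sequence that sets these mRNAs apart, so it is shown for members whose values are given below. Each line gives 30 bases of the transcript (GENCODE release 21 for mouse) from 5′ to 3′, with the 16 bases of the stem-loop pattern in capitals.
Hist1h1c: tccaaaaGGCTCTTTTCAGAGCCaccactc
Hist1h2bg: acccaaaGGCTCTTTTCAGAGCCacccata
Hist1h2bk: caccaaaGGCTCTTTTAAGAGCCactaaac
Hist2h2aa1: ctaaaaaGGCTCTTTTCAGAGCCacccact
Hist1h4i: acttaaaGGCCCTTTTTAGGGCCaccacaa
Hist1h4d: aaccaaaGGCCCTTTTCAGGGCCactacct
The pattern, searched on the transcript strand, was GG, 2 free bases, CTT, a free base, T, a free base, AG, 2 free bases and CC. Of the 65 symbols, 64 matched a GENCODE gene, and 43 of those had the pattern in a transcript, against 201 of 55450 genes in all (0.362%). The form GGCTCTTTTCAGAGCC was the most frequent, in 23 members of the H1, H2A, H2B and H3 families. The form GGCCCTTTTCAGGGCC was in 7 members, all of them H4. In 22 members the annotated transcript ran on for more than 100 bases after the stem-loop, and 14 members had AATAAA, the usual polyadenylation signal, in their last 50 bases. Hist1h1c had both: its transcript runs 840 bases past the stem-loop and has AATAAA near its end. The annotated transcript of Hist1h2bc, 1156 bases long, had no match, which says only that these letters are not in it.

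The genes lie in 4 clusters. In mm9 coordinates, the Hist1 cluster spans chromosome 13 from 21807632 to 24026720 with 53 entries of the mammosphere table. The Hist2 cluster spans chromosome 3 from 96023839 to 96074115 with 10 entries, Hist3 spans chromosome 11 from 58762413 to 58770176 with 3, and Hist4 is 1 entry on chromosome 6 from 136750074 to 136752952. Most entries are short: the median span was 473 bases and 53 of 67 were under 1000 bases. Within a family many copies are so alike that a read may fit several of them. Over the coding part of each member, a median of 57.9% of 100-base windows, the read length, also occurred in another gene; the median was 81.5% for H2A, 52.0% for H2B, 68.6% for H3, 60.1% for H4 and 4.90% for H1. That other gene was not always a histone gene. Genes were told apart by name and not by position, so a gene annotated over the same stretch of DNA counts as another gene. All coding windows of Hist3h2a and Hist2h2bb occurred in another gene, but 0% of their transcript windows occurred in another histone gene. The split of reads between copies, or between a copy and another gene, is therefore uncertain. Hist1h2br, Hist2h2aa1 and Hist1h2ao each have 2 entries with equal values, and those counts include both.

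Levels of these genes were low in all 4 libraries. Of the histone entries at 1 FPKM or more, 0 of 33 in the mammosphere library and 2 of 52 in the bulk library lay above the median of all entries at that level (11.2 and 12.3 FPKM). In the Cbx8 knockdown library 2 of 15 did, and in the control shRNA library 1 of 10 (medians 16.9 and 16.9 FPKM). The entries above the median were Hist1h1c in the bulk, knockdown and control libraries, and Hist1h2bc in the bulk and knockdown libraries. Members just inside the 1 FPKM limit of the mammosphere table were Hist1h3a and Hist1h3b, both at 1.02 FPKM in their higher library, and just outside it were Hist1h3i at 0.915 FPKM and Hist1h3c at 0.889 FPKM.

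Histone entries were lower in the mammosphere library than in the bulk library, with H2B furthest apart. Fold changes are log2 of the ratio after 1 FPKM was added to each value, a scale that understates changes of low genes, and a 2-fold limit was used for counts. On it 20 of 52 histone entries were at least 2-fold lower in mammospheres, against 17.3% of all 11603 entries at 1 FPKM or more, and 0 of 52 were at least 2-fold higher, against 3.54%. A log2 fold change below 0 was found in 50 of 52, against 65.3% of all entries, and one above 0 in 2 of 52, against 34.7%. The median was −0.78 for histone entries and −0.24 for all entries. Of the 52, 19 passed the 1 FPKM limit through the bulk library alone and 0 through the mammosphere library alone, so those 19 had to be lower in mammospheres. The count moved with the added constant: it was 34 with 0.1 FPKM and 7 with 5 FPKM. As a plain ratio, 34 of 52 were at 50% of the bulk level or less, against 21% of all entries, and 0 of 52 were at 2 times the bulk level or more, against 5.98%. The authors tested only 2 histone entries, Hist1h2bc and Hist1h1c, and both were at least 2-fold lower and 0 higher; of all 4045 tested entries 16.2% were lower and 3.73% higher.

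**Figure D1:**
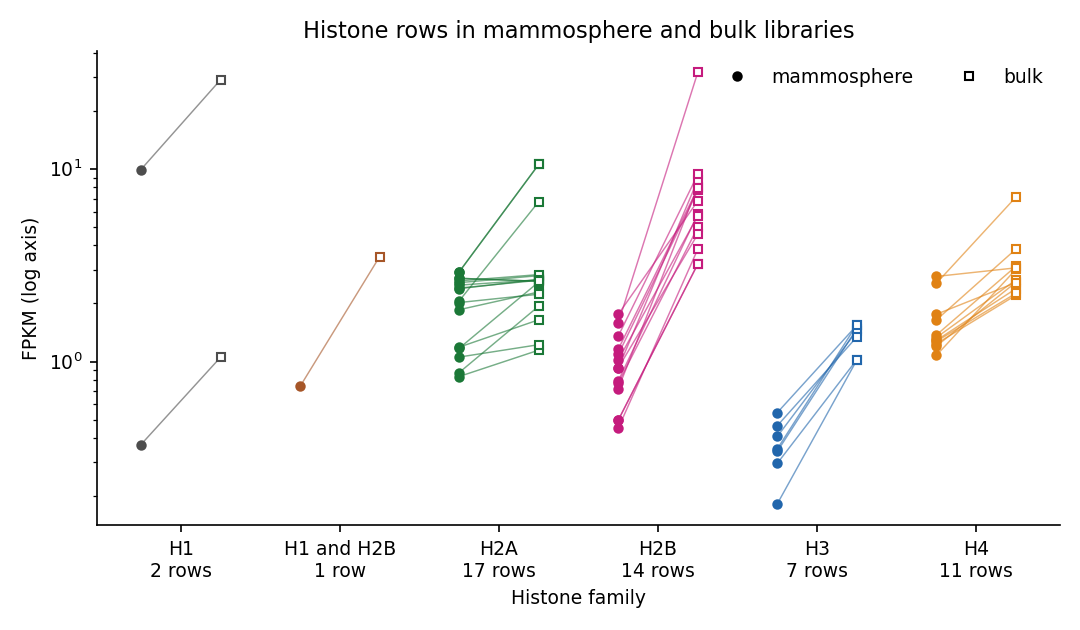
FPKM on a log axis of the 52 histone entries at 1 FPKM or more, by family, in the mammosphere library (filled circles) and the bulk library (open squares), with a line for each entry. All 14 H2B lines run upward from mammosphere to bulk, by ratios of 3.87 to 20.0, whereas most H2A lines are close to level.

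The H2B genes, whose protein pairs with H2A in the nucleosome, were lower in mammospheres in every measured entry. Of 18 H2B entries, 14 reached 1 FPKM, all in the Hist1 cluster, and all 14 were at least 2-fold lower. Of these, 8 passed the limit through the bulk library alone, so their direction was set by the filter, and 6 were at 1 FPKM or more in both libraries. The log2 fold changes of all 14 ran from −3.66 to −1.49 with a median of −1.84. Their values summed to 13.5 FPKM in mammospheres and 112 FPKM in bulk cells. As a plain ratio they were lower by 6.86-fold at the median, with a range of 3.87-fold to 20.0-fold. All 14 also stayed at least 2-fold lower when fold changes were centred on the median gene or when the upper quartiles of the libraries were set equal. Hist1h2bc was the most abundant of them in bulk cells, and every other one shares coding windows with it. The shared part ran from 6.74% in Hist1h2bb to 73.0% in Hist1h2bg. The 14 entries may thus not be separate readings, and the part of Hist1h2bc reads in the others was not tested.

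Hist1h2bc stood furthest apart of all measured histone entries. It was at 1.58 FPKM in mammospheres and 31.6 FPKM in bulk cells, a log2 fold change of −3.66. It was the only H2B entry that the authors tested, with q = 4.73e-06 in the authors' deposited table. Of the 100-base windows of its transcript 25.4% occur in another gene, but of its coding windows 94.7% do, so the remainder of the transcript is largely its own.

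Hist1h2ba was at 0.723 FPKM in mammospheres and 8.09 FPKM in bulk cells, with 27.4% of its coding windows in another gene. Hist1h2bm was at 0.794 FPKM in mammospheres and 5.81 FPKM in bulk cells, and has the fewest coding windows shared of the H2B entries at 1 FPKM or more (9.93%). Both were under 1 FPKM in mammospheres, and both share fewer coding windows than the other measured H2B entries. Some of those windows are in the abundant Hist1h2bc, 19.6% for Hist1h2ba and 7.09% for Hist1h2bm. How much of their bulk values comes from its reads was not tested. Hist1h2bh was at 1.35 FPKM in mammospheres and 9.34 FPKM in bulk cells. Hist1h2bj was at 0.923 FPKM in mammospheres and 8.75 FPKM in bulk cells. At the near end, Hist1h2bg was at 1.76 FPKM in mammospheres and 6.81 FPKM in bulk cells. Hist1h2bl was at 1.09 FPKM in mammospheres and 7.72 FPKM in bulk cells. The 2 Hist1h2br entries had the lowest bulk values of the family's measured entries, at 0.496 FPKM in mammospheres and 3.21 FPKM in bulk cells. Hist1h2bn was at 1.02 FPKM in mammospheres and 5.70 FPKM in bulk cells, and Hist1h2bb was at 0.773 FPKM in mammospheres and 4.97 FPKM in bulk cells. Hist1h2bf was at 0.926 FPKM in mammospheres and 4.58 FPKM in bulk cells, and Hist1h2bp was at 0.450 FPKM in mammospheres and 3.83 FPKM in bulk cells. Hist1h2bk is taken up with its neighbouring H2A gene. Every measured H2B entry was thus lower in mammospheres than any of them was in bulk cells. Hist2h2be, an H2B gene of the Hist2 cluster, was under the limit in both libraries, at 0.787 FPKM in mammospheres and 0.303 FPKM in bulk cells.

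The H2A genes divided by cluster. In the Hist1 cluster 12 of 13 H2A entries reached 1 FPKM, and their log2 fold changes ran from −0.27 to 0.04 with a median of −0.10. That median turned to 0.09 when centred on the median gene and to 0.13 with equal upper quartiles, so the sign for Hist1 H2A depends on the scaling. Hist1h2ad was at 2.56 FPKM in mammospheres and 2.79 FPKM in bulk cells. Hist1h2ae, with the most negative log2 fold change among them (−0.27), was at 1.19 FPKM in mammospheres and 1.65 FPKM in bulk cells. Hist1h2ao was at 2.70 FPKM in mammospheres and 2.61 FPKM in bulk cells in both of its entries. Hist1h2ac was at 0.836 FPKM in mammospheres and 1.15 FPKM in bulk cells, and Hist1h2ab was at 1.86 FPKM in mammospheres and 2.29 FPKM in bulk cells. Hist1h2ai was at 2.39 FPKM in mammospheres and 2.67 FPKM in bulk cells, and Hist1h2an was at 2.49 FPKM in mammospheres and 2.66 FPKM in bulk cells. Hist1h2ag was at 2.02 FPKM in mammospheres and 2.23 FPKM in bulk cells, and Hist1h2af was at 2.40 FPKM in mammospheres and 2.64 FPKM in bulk cells. No Hist1 H2A entry at 1 FPKM or more was lower in mammospheres by more than 1.39-fold as a plain ratio. Hist1h2ak, with 16.0% of its coding windows in another gene, was at 1.05 FPKM in mammospheres and 1.22 FPKM in bulk cells. These 2 libraries gave nearly level values for Hist1 H2A copies that share much sequence and for one that shares little.

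The Hist2 H2A entries were lower in mammospheres. Each of the 2 Hist2h2aa1 entries was at 2.92 FPKM in mammospheres and 10.5 FPKM in bulk cells, a log2 fold change of −1.56. All of its 100-base windows also occur in the annotated gene Gm20633, and 88.1% occur in another histone gene. Hist2h2ac was at 2.06 FPKM in mammospheres and 6.75 FPKM in bulk cells, a log2 fold change of −1.34. Hist2h2ab was at 0.876 FPKM in mammospheres and 1.94 FPKM in bulk cells. Hist3h2a, the Hist3 member, was at 1.17 FPKM in mammospheres and 2.59 FPKM in bulk cells. All 5 were thus lower in mammospheres, 3 of them by at least 2-fold.

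Many H2A and H2B genes sit head to head with a shared stretch of DNA between them. Pairs were taken here by distance alone, up to 1000 bases, without a check of strand. There were 10 pairs with both members at 1 FPKM or more, with gaps of 167 to 334 bases. The Hist1h2ao and Hist1h2br pair is counted in both of its copies. The other H2B entries of these pairs share coding windows with Hist1h2bc, so the pairs may not be separate readings. In all 10 pairs the H2B entry was at least 2-fold lower in mammospheres, and in 0 of 10 was the H2A entry. In 5 of the 10 the H2B entry passed the 1 FPKM limit through the bulk library alone and had to be lower. A further 4 pairs had a member under the limit, and in 3 of them the difference of H2B minus H2A was positive: 1.79 for Hist2h2be and Hist2h2ac, 1.10 for Hist2h2be and Hist2h2ab, and 0.69 for Hist3h2bb-ps and Hist3h2a. The fourth, Hist1h2ba and Hist1h2aa, had a difference of −2.46. Hist2h2be is in both of the Hist2 pairs, and Hist2h2ac lies between it and Hist2h2ab. Over the 10 pairs the medians were −1.73 for H2B and −0.09 for H2A. The difference within a pair, H2B minus H2A, had a median of −1.64 (range −3.43 to −1.23). Centring on the median gene cancels in this difference. Hist1h2bk, for example, was at 1.16 FPKM in mammospheres and 7.92 FPKM in bulk cells. Its neighbour Hist1h2ah was at 2.62 FPKM in mammospheres and 2.82 FPKM in bulk cells.

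**Figure D2:**
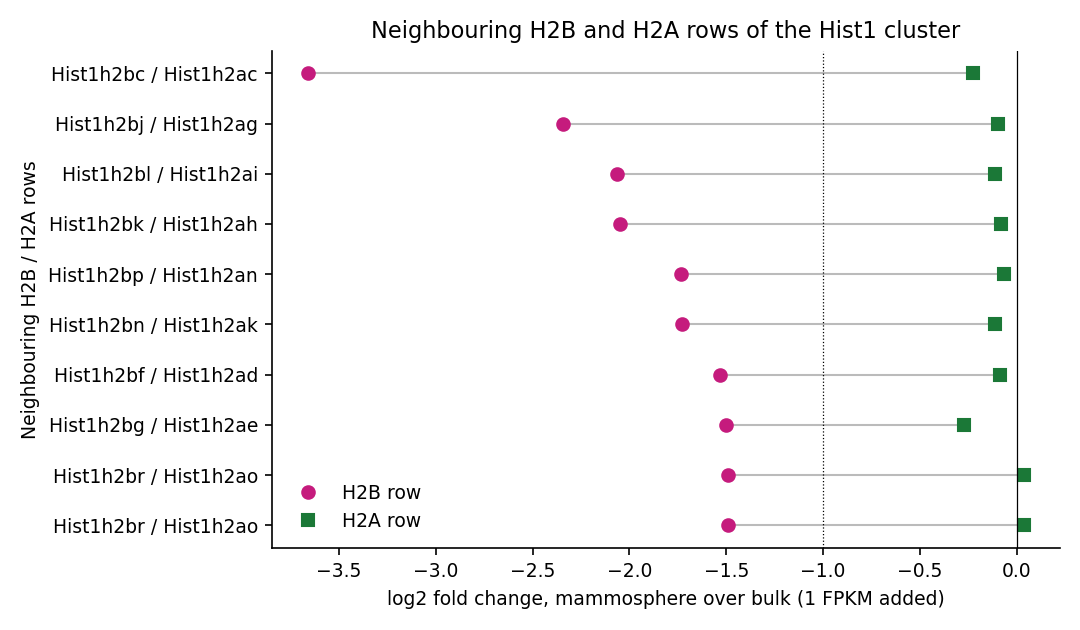
Log2 fold change of mammosphere over bulk, with 1 FPKM added, of the H2B entry (circles) and the H2A entry (squares) of each of the 10 neighbouring pairs of the Hist1 cluster; the dotted line marks −1. Every circle lies left of the dotted line, from −3.66 to −1.49, and every square lies right of it, from −0.27 to 0.04.

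The promoter window of Hist1h2bk is shown because it overlaps that of Hist1h2ah on the other strand, so one stretch of DNA stands before 2 genes whose values differ. It is 300 bases from RefSeq (GRCm38.p6, chr13:22035571-22035870, plus strand), 250 before and 50 after the start. Capitals mark the octamer ATTTGCAT, the CCAAT box CCAAT and the TATA box TATAAA, each searched on both strands.
Hist1h2bk: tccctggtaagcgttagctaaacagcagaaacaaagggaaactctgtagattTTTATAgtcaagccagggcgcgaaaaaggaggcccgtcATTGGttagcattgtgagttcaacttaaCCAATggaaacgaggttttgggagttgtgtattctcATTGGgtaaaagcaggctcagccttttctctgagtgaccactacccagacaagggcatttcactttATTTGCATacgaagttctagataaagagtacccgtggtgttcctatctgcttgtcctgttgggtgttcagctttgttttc
That window holds 1 octamer, 3 CCAAT boxes and 1 TATA box. The TATA box lies on the strand of Hist1h2ah, but after the annotated start of that gene and not before it. The octamer, which is bound by Oct1 and is a known element of H2B promoters, was found in 7 of 16 H2B and 7 of 16 H2A windows, against 1.74% of all 32851 windows in the table. A CCAAT box was in all 16 windows of both families, against 37.4% of all windows. It was also in all 6 H1 and all 10 H3 windows, and in 3 of 12 H4 windows. A TATA box was in 11 of 16 H2A and 8 of 16 H2B windows, against 13.6% of all windows. The other families had it in 4 of 6 H1, 4 of 10 H3 and 8 of 12 H4 windows. Windows of neighbouring genes overlap and both strands were searched, so one motif can count for both H2A and H2B.

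Linker histone H1 seals DNA at the nucleosome. Of 5 H1 entries, 2 reached 1 FPKM. Hist1h1c, which encodes H1.2, was at 9.91 FPKM in mammospheres and 28.9 FPKM in bulk cells, a log2 fold change of −1.46. In the authors' deposited table its q was 0.0678. It was the most abundant histone entry in mammospheres and came after Hist1h2bc in bulk cells. Hist1h1d was at 0.371 FPKM in mammospheres and 1.05 FPKM in bulk cells. An entry that the table gives to Hist1h1e and Hist1h2be together was at 0.742 FPKM in mammospheres and 3.50 FPKM in bulk cells, so an H1 and an H2B gene cannot be told apart there. Hist1h1t, a testis-specific H1, was listed at 0 in both libraries, and Hist1h1a was listed at 0 in mammospheres and at 0.123 FPKM in bulk cells.

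The H1 box, AAACACA, is an element known from H1 promoters, and Hist1h1c is shown as the abundant member that carries it. Its window is from RefSeq (GRCm38.p6, chr13:23738557-23738856, plus strand), with the H1 box and the CCAAT box in capitals, both strands searched.
Hist1h1c: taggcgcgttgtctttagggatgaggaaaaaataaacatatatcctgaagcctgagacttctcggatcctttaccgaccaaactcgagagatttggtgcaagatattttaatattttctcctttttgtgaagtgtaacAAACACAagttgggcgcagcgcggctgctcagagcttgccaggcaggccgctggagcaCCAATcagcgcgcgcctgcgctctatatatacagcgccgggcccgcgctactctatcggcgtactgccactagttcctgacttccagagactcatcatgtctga
An H1 box was in 5 of 6 H1 windows, 2 of 16 H2A, 2 of 16 H2B and 0 of 10 H3 windows, against 7.18% of all windows.

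The H3 and H4 genes encode the tetramer at the core of the nucleosome. Of 12 H3 entries 7 reached 1 FPKM, all close to that limit in bulk cells and under it in mammospheres. Their log2 fold changes had a median of −0.77 and 0 of 7 passed the 2-fold limit with 1 FPKM added, whereas as plain ratios all 7 were lower, by 2.84-fold to 5.57-fold. Hist2h3b, the highest of them in mammospheres, was at 0.544 FPKM in mammospheres and 1.54 FPKM in bulk cells. Hist1h3a was at 0.183 FPKM in mammospheres and 1.02 FPKM in bulk cells. The highest bulk value was that of Hist2h3c2-ps, an entry named as a pseudogene, at 0.352 FPKM in mammospheres and 1.55 FPKM in bulk cells. Hist2h3c1 was at 0.342 FPKM in mammospheres and 1.48 FPKM in bulk cells, and Hist1h3d was at 0.409 FPKM in mammospheres and 1.44 FPKM in bulk cells. Hist1h3e was at 0.465 FPKM in mammospheres and 1.34 FPKM in bulk cells, and Hist1h3b was at 0.297 FPKM in mammospheres and 1.02 FPKM in bulk cells. All of these passed the 1 FPKM limit through the bulk library alone, so they had to be lower in mammospheres. Of 13 H4 entries 11 reached 1 FPKM, all were lower in mammospheres, and the median was −0.65. Hist1h4i was the only one at least 2-fold lower, at 2.55 FPKM in mammospheres and 7.14 FPKM in bulk cells (log2 fold change −1.20), and it fell short of the limit with equal upper quartiles. Hist1h4n was at 1.64 FPKM in mammospheres and 3.83 FPKM in bulk cells, and Hist1h4h at 1.08 FPKM in mammospheres and 3.01 FPKM in bulk cells. Hist1h4m was at 1.37 FPKM in mammospheres and 3.12 FPKM in bulk cells, and Hist1h4b was at 1.20 FPKM in mammospheres and 2.58 FPKM in bulk cells. Hist1h4a was at 1.33 FPKM in mammospheres and 2.65 FPKM in bulk cells, and Hist1h4k was at 1.29 FPKM in mammospheres and 2.39 FPKM in bulk cells. All of these H4 entries were above 1 FPKM in both libraries. Hist1h4j was at 1.24 FPKM in mammospheres and 2.21 FPKM in bulk cells, and Hist1h4c was at 1.27 FPKM in mammospheres and 2.26 FPKM in bulk cells. Hist1h4f was at 1.76 FPKM in mammospheres and 2.57 FPKM in bulk cells. Hist1h4d, an H4 gene whose coding windows occur in no other gene, was at 2.76 FPKM in mammospheres and 3.06 FPKM in bulk cells. H4 copies thus ranged from nearly level to 2.80-fold lower as plain ratios.

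Entries with lower values in mammospheres were found among those that share little sequence and those that share much. Among the 14 entries with under 50% of coding windows in another gene, 7 were at least 2-fold lower in mammospheres and the median was −0.98. The 36 entries with 50% or more shared had 12 that were lower and a median of −0.72. All 4 H2B entries with under 50% shared were at least 2-fold lower, with a median of −2.03, but 3 of the 4 passed the 1 FPKM limit through the bulk library alone and had to be lower. The limit of 50% was chosen after the data had been seen. Windows shared with a gene annotated over the same stretch of DNA count as shared in this split too.

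**Figure D3:**
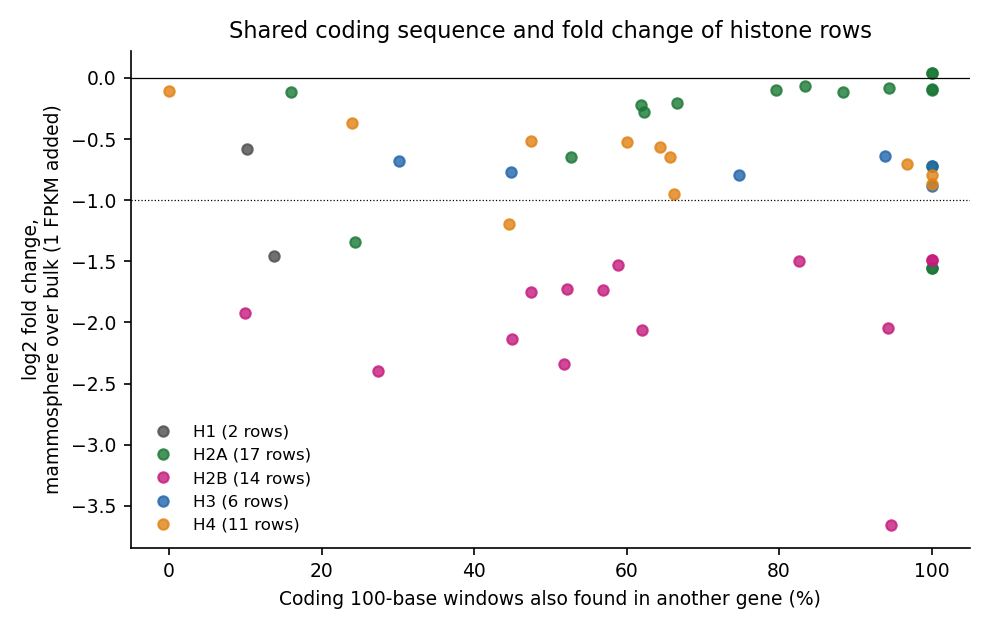
Log2 fold change of mammosphere over bulk, with 1 FPKM added, against the percentage of coding 100-base windows found in another gene, for the 50 histone entries with a value, coloured by family; the dotted line marks −1. H2B entries lie under the dotted line from 9.93% shared windows upward, and Hist1 H2A entries lie near 0 from 16.0% upward.

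Genes that act on histone mRNA and histones, and genes of the cell cycle, were read beside these values from lists that earlier results of these data may have shaped. Of 23 measured genes of histone 3′ end processing and decay, 1 was at least 2-fold higher in mammospheres, against 3.54% of all entries. At least 2-fold lower were 0 of 23, against 17.3%, and the median was 0.17. Slbp, the stem-loop binding protein, was at 26.5 FPKM in mammospheres and 43.1 FPKM in bulk cells. Lsm10, a core protein of the U7 particle, was at 32.7 FPKM in mammospheres and 12.8 FPKM in bulk cells. Npat, the coactivator of histone gene transcription, was at 8.98 FPKM in mammospheres and 6.80 FPKM in bulk cells. Casp8ap2 was at 6.05 FPKM in mammospheres and 3.13 FPKM in bulk cells; it encodes FLASH, another factor of histone mRNA 3′ processing. The stem-loop binder and the U7 subunit thus differed in opposite directions between the libraries.

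Replacement and variant histones are in many cases made outside S phase from polyadenylated mRNA. Of these, 0 of 11 measured were at least 2-fold higher and 1 lower in mammospheres, against 3.54% and 17.3% of all entries. The median was 0.15. Both other scalings gave 1 higher and 0 lower, with medians of 0.34 when centred and 0.33 with equal upper quartiles. The one lower was H3f3b, which encodes H3.3, at 255 FPKM in mammospheres and 521 FPKM in bulk cells. H2afz, which encodes H2A.Z, was at 153 FPKM in mammospheres and 125 FPKM in bulk cells. H2afx was at 38.2 FPKM in mammospheres and 45.0 FPKM in bulk cells, and H2afj was at 38.4 FPKM in mammospheres and 48.3 FPKM in bulk cells. H3f3a was at 51.9 FPKM in mammospheres and 74.5 FPKM in bulk cells, and H1f0 was at 32.2 FPKM in mammospheres and 25.0 FPKM in bulk cells. Among 23 histone chaperones and assembly factors, 2 were at least 2-fold higher and 0 lower, against the same 3.54% and 17.3%. Their median of −0.01 turned to 0.18 when centred and to 0.31 with equal upper quartiles. Asf1b, an H3-H4 chaperone, was at 19.7 FPKM in mammospheres and 7.27 FPKM in bulk cells. Hjurp was at 29.0 FPKM in mammospheres and 12.6 FPKM in bulk cells; it is the chaperone of the centromeric H3 variant.

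DNA replication and S phase genes were on the higher side in mammospheres, in 24 of 26, with a median of 0.43 and 0 of 26 past the 2-fold limit. With fold changes centred on the median gene 3 of 26 were at least 2-fold higher (median 0.62), and with equal upper quartiles 8 of 26 (median 0.75). Over all 11603 entries, 34.7% were on the higher side and 3.54% at least 2-fold higher. The number at least 2-fold higher over all entries was 653 when centred and 822 with equal upper quartiles. Rrm2, the small subunit of ribonucleotide reductase, was at 78.4 FPKM in mammospheres and 42.0 FPKM in bulk cells. All 16 G2 and M phase genes were on the higher side, 4 of them by at least 2-fold, with a median of 0.83; the count was 10 when centred and 12 with equal upper quartiles. Of 16 entries for CDK inhibitors and cell cycle exit genes, 4 were at least 2-fold lower, against 17.3% of all entries, and 0 higher. Both other scalings gave 3 lower and 2 higher. Btg2, an antiproliferative gene, was at 4.84 FPKM in mammospheres and 85.2 FPKM in bulk cells. The part of the cell cycle in the histone values was not tested.

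Other cell types' markers differed between these libraries too. Of 14 measured leukocyte markers, 13 were at least 2-fold lower in mammospheres, against 17.3% of all entries. That share stands beside the counts of the other marker lists here too. The leukocyte list sum was 109.5 FPKM in mammospheres and 462 FPKM in bulk cells. The one higher was Cd68, a macrophage marker, at 101.2 FPKM in mammospheres and 35.5 FPKM in bulk cells, and without it the sums were 8.28 FPKM in mammospheres and 426 FPKM in bulk cells. Of the measured ones Tyrobp, Fcer1g, Cd3e and Cd3d were listed at 0 in mammospheres. List sums here include markers under 1 FPKM in both libraries. Of 11 measured fibroblast markers, 10 were at least 2-fold lower, with list sums of 18.9 FPKM in mammospheres and 458 FPKM in bulk cells. Postn, Thy1 and Lum were listed at 0 in mammospheres. Both measured endothelial markers were lower, with list sums of 0.375 FPKM in mammospheres and 6.53 FPKM in bulk cells. Tek and Emcn were listed at 0 in mammospheres. Of 8 measured mammary epithelial markers, 6 were at least 2-fold lower. The list sums were 74.1 FPKM in mammospheres and 953 FPKM in bulk cells, with none at 0. When centred, the count of lower markers was 12 for leukocytes, 9 for fibroblasts and 4 for epithelium, against 13.3% of all entries. With equal upper quartiles it was 12, 9 and 6, against 13.5%. Krt18 was at 58.2 FPKM in mammospheres and 570 FPKM in bulk cells, and Krt19 at 9.65 FPKM in mammospheres and 9.08 FPKM in bulk cells. Epcam was at 0.0908 FPKM in mammospheres and 1.06 FPKM in bulk cells, and Cdh1 at 0.0135 FPKM in mammospheres and 1.04 FPKM in bulk cells, so both were low in either library. The part of these cell types in the histone values was not tested, and fewer cells of a type cannot be told apart from less RNA per cell.

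In the second comparison Cbx8 itself was at 1.23 FPKM in the knockdown library and 4.74 FPKM in the control shRNA library, with p = 0.0025 and q = 0.385 in the authors' deposited table. Histone entries were for the most part slightly higher in the knockdown library. Of 17 measured, 1 was at least 2-fold higher, against 0.262% of all 10670 entries, and 0 were at least 2-fold lower, against 0.394%. A log2 fold change above 0 was found in 13 of 17, against 48.8% of all entries, and one below 0 in 4 of 17, against 51.2%. Medians were 0.40 for histone entries and −0.01 for all entries. Of the 17, 7 passed the 1 FPKM limit through the knockdown library alone and had to be higher there, and 2 passed through the control shRNA library alone and had to be lower. As plain ratios, 5 of 17 were at 2 times the control level or more, against 0.872% of all entries, and 2 of 17 at 50% or less, against 1.08%. The members that pass these plain limits are all under 2 FPKM except Hist1h2bc. Across the 30 entries with a test statistic the authors' deposited table gives q from 0.911 to 0.999.

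**Figure D4:**
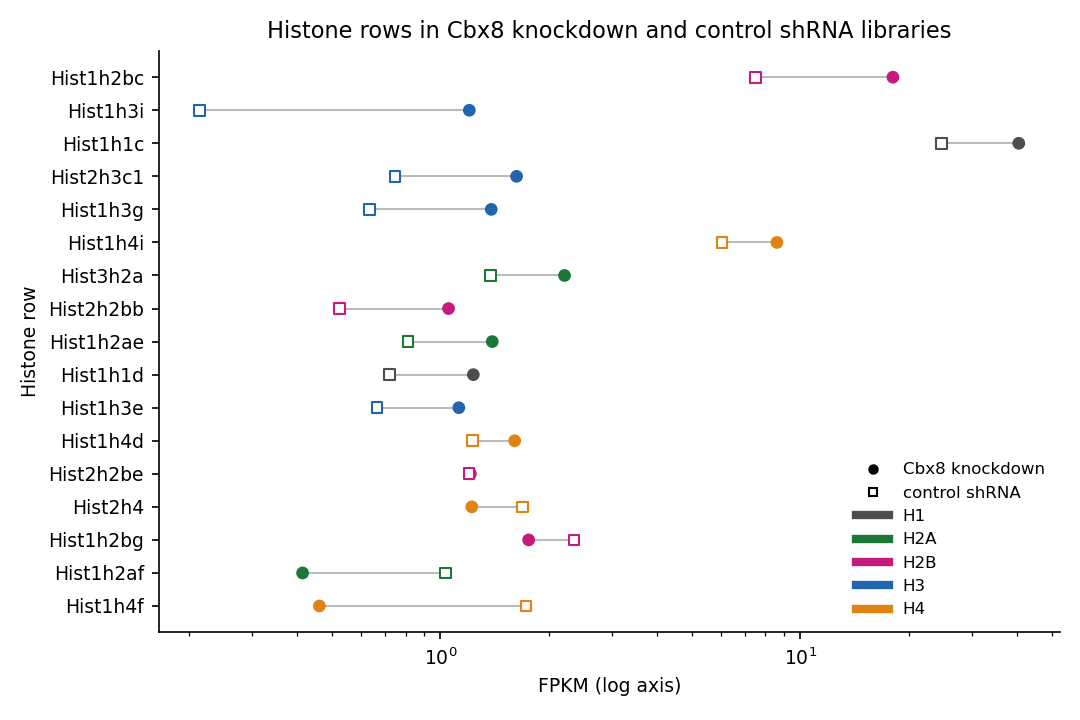
FPKM on a log axis of the 17 histone entries at 1 FPKM or more, in the Cbx8 knockdown library (filled circles) and the control shRNA library (open squares), ordered by log2 fold change with 1 FPKM added and coloured by family. Hist1h2bc at the top and 12 others are higher in the knockdown library, and the 4 at the bottom are lower.

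Hist1h2bc was the one entry past the limit, at 18.1 FPKM in the knockdown library and 7.52 FPKM in the control shRNA library, a log2 fold change of 1.16. The authors' deposited table gives it p = 0.0159 and q = 0.911. Hist1h1c was at 40.4 FPKM in the knockdown library and 24.7 FPKM in the control shRNA library, a log2 fold change of 0.69. The authors' deposited table gives it p = 0.0232 and q = 0.999. Hist1h4i was at 8.61 FPKM in the knockdown library and 6.05 FPKM in the control shRNA library. These 3 were the only members above 3 FPKM in either library, and all 3 were higher in the knockdown library.

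The 4 measured H3 entries were also all on the higher side. Hist1h3i was at 1.20 FPKM in the knockdown library and 0.214 FPKM in the control shRNA library. Hist2h3c1 was at 1.63 FPKM in the knockdown library and 0.748 FPKM in the control shRNA library. Hist1h3g was at 1.38 FPKM in the knockdown library and 0.634 FPKM in the control shRNA library. Hist1h3e was at 1.13 FPKM in the knockdown library and 0.667 FPKM in the control shRNA library. All 4 passed the 1 FPKM limit through the knockdown library alone, so they had to be higher there. Of the other H2B genes, Hist1h2bg was at 1.76 FPKM in the knockdown library and 2.35 FPKM in the control shRNA library, and Hist2h2be was at 1.21 FPKM in the knockdown library and 1.20 FPKM in the control shRNA library. Hist2h2bb was at 1.05 FPKM in the knockdown library and 0.524 FPKM in the control shRNA library. H2B entries thus differed among themselves in direction. Among H2A genes, Hist3h2a was at 2.21 FPKM in the knockdown library and 1.38 FPKM in the control shRNA library, whereas Hist1h2af was at 0.414 FPKM in the knockdown library and 1.03 FPKM in the control shRNA library. Hist1h1d, the other measured H1 gene, was at 1.23 FPKM in the knockdown library and 0.723 FPKM in the control shRNA library. The one neighbouring pair with both members measured was Hist1h2bg and Hist1h2ae, with log2 fold changes of −0.28 for the H2B gene and 0.40 for the H2A gene. As levels, Hist1h2ae was at 1.39 FPKM in the knockdown library and 0.812 FPKM in the control shRNA library. Hist1h4f was furthest on the lower side, at 0.461 FPKM in the knockdown library and 1.73 FPKM in the control shRNA library (log2 fold change −0.90). Hist2h4 was at 1.22 FPKM in the knockdown library and 1.69 FPKM in the control shRNA library. Hist1h4d was at 1.61 FPKM in the knockdown library and 1.23 FPKM in the control shRNA library, so H4 entries also differed in direction. Hist1h4k was at 1.12 FPKM in the knockdown library and is listed as exactly 1 in the control shRNA library, in an entry with no test statistic, so it was not counted.

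Of the genes around them, 19 of 23 for histone 3′ end processing and decay were on the lower side in the knockdown library, against 51.2% of all entries. Past the 2-fold limit were 0 of 23, and the median was −0.12. Slbp was at 54.1 FPKM in the knockdown library and 61.6 FPKM in the control shRNA library. Npat was at 10.0 FPKM in the knockdown library and 12.1 FPKM in the control shRNA library. Casp8ap2 was at 8.24 FPKM in the knockdown library and 9.20 FPKM in the control shRNA library. Of 23 chaperones and assembly factors, 20 were on the lower side, against the same 51.2%, with a median of −0.13 and 0 past the limit. The 10 measured replacement and variant histones had a median of −0.04. H3f3b was at 297 FPKM in the knockdown library and 224 FPKM in the control shRNA library. H2afx was at 140 FPKM in the knockdown library and 105 FPKM in the control shRNA library. H2afz was at 7.50 FPKM in the knockdown library and 8.60 FPKM in the control shRNA library. H2A.X, encoded by H2afx, is the variant phosphorylated at DNA breaks. H2afj was at 38.3 FPKM in the knockdown library and 30.3 FPKM in the control shRNA library. H1f0 was at 79.7 FPKM in the knockdown library and 76.6 FPKM in the control shRNA library. H3f3a was at 62.0 FPKM in the knockdown library and 65.3 FPKM in the control shRNA library. S phase genes had a median of −0.06, G2 and M phase genes −0.05, and CDK inhibitors and exit genes −0.04, with 0 past the limit in each. Of the leukocyte markers 2 were measured and of the fibroblast markers 3, with 0 past the limit, and no endothelial marker was listed. Of 6 measured epithelial markers, 1 was at least 2-fold higher, against 0.262% of all entries. It was Krt14, at 10.5 FPKM in the knockdown library and 1.09 FPKM in the control shRNA library.

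The comparisons share no library. Of the 12 entries at 1 FPKM or more in both tables, 9 were lower in mammospheres than in bulk cells and higher in the knockdown than in the control shRNA library. The other 3, Hist1h2bg, Hist1h4f and Hist1h2af, were lower in both. Hist1h2bc and Hist1h1c, the members with the highest levels, were among the 9. The 1 FPKM limit set part of this pattern. Hist2h3c1, Hist1h3e and Hist1h1d passed it through the bulk library alone and through the knockdown library alone, so both directions were set. Hist1h2ae had to be higher in the knockdown library, and Hist1h4f and Hist1h2af had to be lower there. The share of all entries with opposite directions was not computed. Levels were not set against each other across the tables, which were normalized separately.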

How the data were processed

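Polyadenylated RNA was sequenced as single-end reads of 100 bases, per the labels' protocols. The submitters' processing notes name FastQC 0.10.0, TopHat 1.4.0, Cufflinks 1.3.0, Cuffdiff 0.0.7 and build mm9. The authors deposited 2 Cuffdiff tables with FPKM per gene and a p-value and q-value for each entry. How reads with several matches were treated is not stated in the labels or notes. Depth is unknown, so no counting interval was computed.

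Fold changes are log2((FPKM + 1)/(FPKM + 1)) within a table, for entries with status OK or not tested and 1 FPKM or more in either library. Left out were 15 entries of the knockdown comparison with a value of exactly 1 and no test statistic. The 1000-base limit for neighbours and all coordinates are on mm9, counted from 1; sequences come from GENCODE release 21 and RefSeq GRCm38.p6, on which no mm9 coordinate was used. Every histone entry at 1 FPKM or more is named; of each list, up to 3 members with the largest change and genes set by role could be named. The cell type markers and the neighbours of the Hist1 cluster were named after their values were seen. Members and lists were chosen with earlier results of these data known. Counting was tested on simulated data with levels above those of most histone entries, so that test does not cover such low values. Alternatives were other pseudocounts, minimums, fold limits, scalings and summed entries. Python 3.11.15 and pandas 2.3.3 were used.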

Additional observations from a re-analysis of the deposited data

How the results depend on the processing

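No paired analysis was possible because each group was 1 library. The count of histone entries at least 2-fold lower in mammospheres was 20. It was 34 with 0.1 FPKM added, 7 with 5 FPKM added, 2 among entries the authors tested, 34 at a limit of 1.5-fold, 6 at 4-fold and 7 among entries with under 50% of coding windows shared, an alternative chosen after seeing the data. The count of higher entries was 0 under every alternative run. The median of −0.78 became −1.38 with 0.1 FPKM added, −0.28 with 5 FPKM, −0.64 with no minimum, −1.83 with a 5 FPKM minimum, −0.60 when centred, −0.63 with equal upper quartiles, −2.56 among tested entries, −0.77 with copies summed and −0.98 for the less shared entries.

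In the knockdown comparison the count of higher entries was 1. It was 4 with 0.1 FPKM added, 0 with 5 FPKM, 4 at 1.5-fold, 0 at 4-fold and 0 among less shared entries. The count of lower entries was 0, and was 2 with 0.1 FPKM added and 1 at 1.5-fold. The median of 0.40 became 0.68 with 0.1 FPKM added, 0.13 with 5 FPKM, 0.25 with no minimum, 0.69 with a 5 FPKM minimum, 0.41 when centred, 0.38 with equal upper quartiles and 0.29 for the less shared entries. No median changed sign under these alternatives. The cause of these shifts was not tested.

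In the mammosphere table the median of genes expressed in both libraries was −0.19, and equal upper quartiles moved the median of all entries by 0.28. The share of all entries at least 2-fold lower was then 13.3% when centred and 13.5% with equal upper quartiles. One library per group, unknown depth and near-identical copies limit every value here.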

Other observations

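The Hist1 cluster region also holds genes that are not histone genes. Of 51 such entries in the mammosphere table, 3 reached 1 FPKM, the others being mostly vomeronasal receptor genes listed at 0. Hfe, an iron regulator, was at 0.154 FPKM in mammospheres and 2.19 FPKM in bulk cells. Abt1 was at 5.35 FPKM in mammospheres and 7.80 FPKM in bulk cells. Zfp322a was at 2.76 FPKM in mammospheres and 1.12 FPKM in bulk cells, so the neighbours differed in both directions. In the knockdown table Abt1 was at 6.31 FPKM in the knockdown library and 6.82 FPKM in the control shRNA library, and Zfp322a at 6.19 FPKM in the knockdown library and 5.84 FPKM in the control shRNA library.

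Histone entries under 1 FPKM in both libraries were left out of the counts. In the mammosphere table there were 15, of which 10 were lower and 4 higher in mammospheres as plain values. In the knockdown table there were 13, of which 6 were lower and 7 higher in the knockdown library.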
